A study of Mus musculus with 4 samples.

Results

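A set of 57 cell cycle genes was followed through the loss of Npac in mouse embryonic stem cells (mESCs): the cyclins, the cyclin-dependent kinases (CDKs), the CDK inhibitors, the E2F and pocket protein genes, and the genes of the mitotic apparatus. The genes were picked by symbol for their roles, with no threshold on a measured value but with earlier results of these data known. The count table held 56748 genes, and all 57 were among the 18157 genes with enough reads to be tested. They were divided into 25 regulators of the passage from G1 to S phase and 32 mitotic genes. The RNA came from E14, an ES cell line of the mouse, grown without feeders on gelatin in serum with leukemia inhibitory factor. The WT group held 2 libraries from WT E14 cells (WT1 and WT2), and the Npac KO group held 1 library from each of 2 lines (KO1 and KO2) that the study made in the same cells with CRISPR/Cas9, puromycin selection and colony picking. Each KO line is therefore a picked colony, and a property of a single colony cannot be told apart from the effect of the deletion in that library. The labels do not say that WT1 and WT2 came from separate cultures, so p-values measure the spread between these libraries, which may be technical.

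In the cell cycle, D-type cyclins with Cdk4 or Cdk6, and E-type cyclins with Cdk2, phosphorylate the pocket proteins (Rb1, Rbl1 and Rbl2), which then release E2F transcription factors to switch on S phase genes. CDK inhibitors of the INK4 family (Cdkn2a to Cdkn2d) bind Cdk4 and Cdk6, and Cdkn1b (p27) acts on CDK complexes more widely. Later in the cycle Ccna2, Ccnb1 and Ccnb2 with Cdk1 drive entry into mitosis, and mouse ES cells are known for a short G1 phase and a high level of cyclin E.

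Npac, listed as Glyr1 (ENSMUSG00000022536, chromosome 16), was at 259 CPM in WT1, at 178 in WT2, and at 47.9 and 51.3 in the KO libraries, where CPM is the TMM-normalized count scaled to a fixed library size. Both KO libraries lay far below both WT libraries, with a log2 fold change of -2.14 (SE 0.23, adjusted p = 0.00174, edgeR's quasi-likelihood test, Benjamini-Hochberg adjustment). The same test and adjustment, over all 18157 genes, stand behind every adjusted p in the text, and a gene was called up-regulated or down-regulated where the adjusted p was under 0.05 and the fold over 1.5. The libraries held between 15850805 and 16965120 counted reads. Markers of ES cells summed to between 3829 and 4546 FPKM (fragments scaled by gene length and library size) in the 4 libraries, and 1 of those 10 markers was down-regulated (Zfp42, log2 fold change -2.64). Dppa5a made up 45.2% to 62.9% of these sums, and 5 of the 10 (Pou5f1, Sox2, Zfp42, Esrrb and Tdgf1) were lower in each KO library than in either WT library, with 3 higher. Of 6 trophoblast markers 2 were up-regulated (Tfap2c and Krt18), with sums of 38.9 and 48.5 FPKM in WT against 100 and 91.8 in KO libraries, while the trophoblast regulator Cdx2 had 0, 3, 0 and 16 reads. Fibroblast markers summed to between 11.0 and 18.2 FPKM, most of it Thy1, with 4 of 8 at 3 reads or fewer in every library and Col1a1 up-regulated (log2 fold change 1.29). Neural markers summed to between 33.2 and 41.7 FPKM, with Neurod1 up-regulated and Sox1 and Ncam1 down-regulated out of 7. Endoderm markers summed to between 4.20 and 8.43 FPKM, with Sox7 down-regulated out of 6, and mesoderm markers to between 3.76 and 6.79, with none of 6 called. Genes of chromosomes 8 and 11 were higher as a group in both KO libraries, with medians of 0.52 and 0.53 for chromosome 8 and 0.51 and 0.49 for chromosome 11 on the log2 scale, and 5 members lie there (E2f4 and Rbl2, and Aurkb, Birc5 and Top2a). Genes of chromosome 9 were lower, with a median of -0.20 in each KO library, and Cdc25a, Ccnb2, Kif23, Ttk and Cdkn2d lie there. With chromosome medians removed, their log2 fold changes were 1.24, 0.72, 0.62, -0.36 and -0.18 in that order. Whether markers of other cell types bear on the cell cycle genes was not tested. In bulk RNA a larger share of cells in a phase and more RNA per cell in that phase cannot be told apart.

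Many mitotic genes carry a pair of promoter elements, the CHR (cell cycle genes homology region, TTTGAA or TTCGAA), which the MuvB complex with Mybl2, Foxm1 or pocket proteins is known to use, and the CCAAT box, which NF-Y binds. Genes of the G1 to S passage more often carry E2F sites, searched here as TTTCCCGC, TTTCGCGC, TTTGCCGC and TTTGGCGC. RefSeq promoter windows of 300 bases (250 before and 50 after the start, build GRCm38.p6) were matched by symbol to 43 of the 57 members and gave 49 windows, which were read on both strands. The following stretches are shown because they belong to genes whose RNA rose or fell, or, for Cdc20, to a gene with a compact pair of elements. Each is printed 5′ to 3′ on the strand of the gene, with every match in capitals, so that ATTGG is a CCAAT box and TTCAAA a CHR on the opposite strand. Cenpf (chr1:189688067-189688226, minus strand) has a CHR just at its start and CCAAT boxes upstream, Cenpa (chr5:30666771-30666910, plus strand) is laid out likewise, and Top2a (chr11:99024190-99024389, minus strand) has both elements several times.
Cenpf: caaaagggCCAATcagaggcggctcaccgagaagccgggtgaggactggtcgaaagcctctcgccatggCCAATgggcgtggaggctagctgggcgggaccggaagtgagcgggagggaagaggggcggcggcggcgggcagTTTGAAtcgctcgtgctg
Cenpa: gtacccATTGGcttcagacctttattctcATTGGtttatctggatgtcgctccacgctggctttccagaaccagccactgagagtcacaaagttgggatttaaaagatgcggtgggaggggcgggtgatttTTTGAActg
Top2a: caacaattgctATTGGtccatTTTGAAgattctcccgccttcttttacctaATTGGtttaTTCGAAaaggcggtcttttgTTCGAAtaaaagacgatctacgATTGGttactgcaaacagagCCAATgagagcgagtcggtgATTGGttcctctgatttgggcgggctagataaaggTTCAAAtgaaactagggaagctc

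Cdc20 (chr4:118437344-118437403, minus strand) has a CHR between CCAAT boxes, and Plk1 (chr7:122159456-122159479, plus strand) and Aurka (chr2:172370524-172370547, minus strand) have a CHR shortly after the start. Of the G1 to S regulators, Cdc25a (chr9:109875439-109875578, plus strand) has an E2F match beside a CCAAT box, and Cdkn1b (chr6:134920231-134920400, plus strand) has CCAAT boxes only in the stretch shown.
Cdc20: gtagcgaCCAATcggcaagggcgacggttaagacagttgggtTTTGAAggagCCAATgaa
Plk1: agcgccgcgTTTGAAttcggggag
Aurka: aggagaaccTTTGAAttgtaacgg
Cdc25a: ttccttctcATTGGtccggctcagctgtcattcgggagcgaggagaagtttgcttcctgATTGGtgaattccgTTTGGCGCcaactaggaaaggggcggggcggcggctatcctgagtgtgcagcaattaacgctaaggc
Cdkn1b: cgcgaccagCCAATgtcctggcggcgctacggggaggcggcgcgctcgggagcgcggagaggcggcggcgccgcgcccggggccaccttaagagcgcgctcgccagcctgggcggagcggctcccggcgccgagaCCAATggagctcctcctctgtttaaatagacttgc

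A CHR was present in 19 of the 25 windows of mitotic genes (76%), against 19.2% of all 32851 RefSeq windows of this length. These 25 windows belong to 24 genes, since Prc1 has overlapping windows, and its CHR and CCAAT sites are counted in each. The 24 windows of G1 to S regulators belong to 19 genes. CCAAT boxes were present in 21 of the 25 mitotic windows (84.0%, against 37.4% of all windows), and both elements in 18 (72.0%, against 7.52%). Windows of the G1 to S regulators differed in content, with a CHR in 5 of 24 (20.8%) and a CCAAT box in 12 (50%). E2F letters were found in 7 of those 24 windows (29.2%), in 1 of the 25 mitotic windows and in 2.26% of all windows. The 27 CHR matches of mitotic genes had a median position of -15 bases from the start, and all 40 CCAAT matches lay before it, with a median of -69.5. Matches of different motifs did not overlap in any member. All 5 windows of up-regulated mitotic genes held both elements (Plk1, Aurka, Cenpa, Cenpf and Top2a; Aurkb and Kif20a had no window here), as did 13 of the 19 windows of mitotic genes that were not called. These are matches of letters and were not tested as binding sites.

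**Figure D1:**
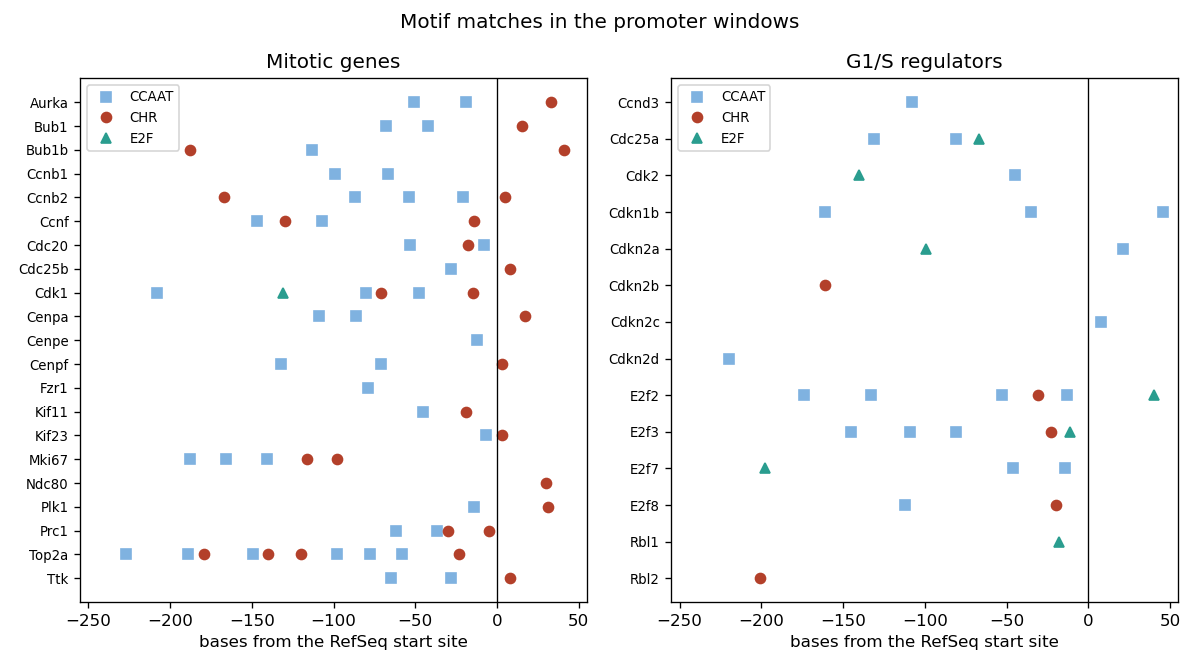
Position of each CHR, CCAAT and E2F match (bases from the RefSeq start site, 0 on the horizontal axis) in the promoter windows of the members, with mitotic genes and G1 to S regulators in separate panels and genes with several windows on 1 row. CCAAT matches of mitotic genes all lie before the start, and their CHR matches gather near it, 18 of 27 within 50 bases.

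Loss of Npac was accompanied by changes in 17 of the 57 genes (29.8%, against 21.7% of all genes tested). In Npac KO cells 12 members were up-regulated (21.1%, against 11.0% of all genes tested) and 5 were down-regulated (8.77%, against 10.7%). Among genes with a mean of at least 500 reads the shares were 13.0% up and 11.1% down. Both KO libraries lay above both WT libraries in 31 members and below both in 10 (33.2% and 32.5% of all genes did so), and in 16 the libraries overlapped. The rises comprised the cyclins Ccnd1, Ccnd2 and Ccne1, the phosphatase Cdc25a, the pocket protein Rbl2, and the mitotic genes Plk1, Aurka, Aurkb, Kif20a, Cenpa, Cenpf and Top2a. The falls comprised Ccnd3, Cdkn1b, E2f2, E2f6 and Ndc80. A KO group of 1 library gave fewer calls: without KO1 the test called 2 members up and 2 down, with 642 and 606 of all genes, and without KO2 it called 6 up and 1 down, with 671 and 681 of all genes. Without WT2, which leaves 1 WT library, more members were called, and more of all genes tested were called too. No called member changed sign in any of these. This could hardly have come out otherwise, since the KO and WT libraries of each called member did not overlap.

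**Figure D2:**
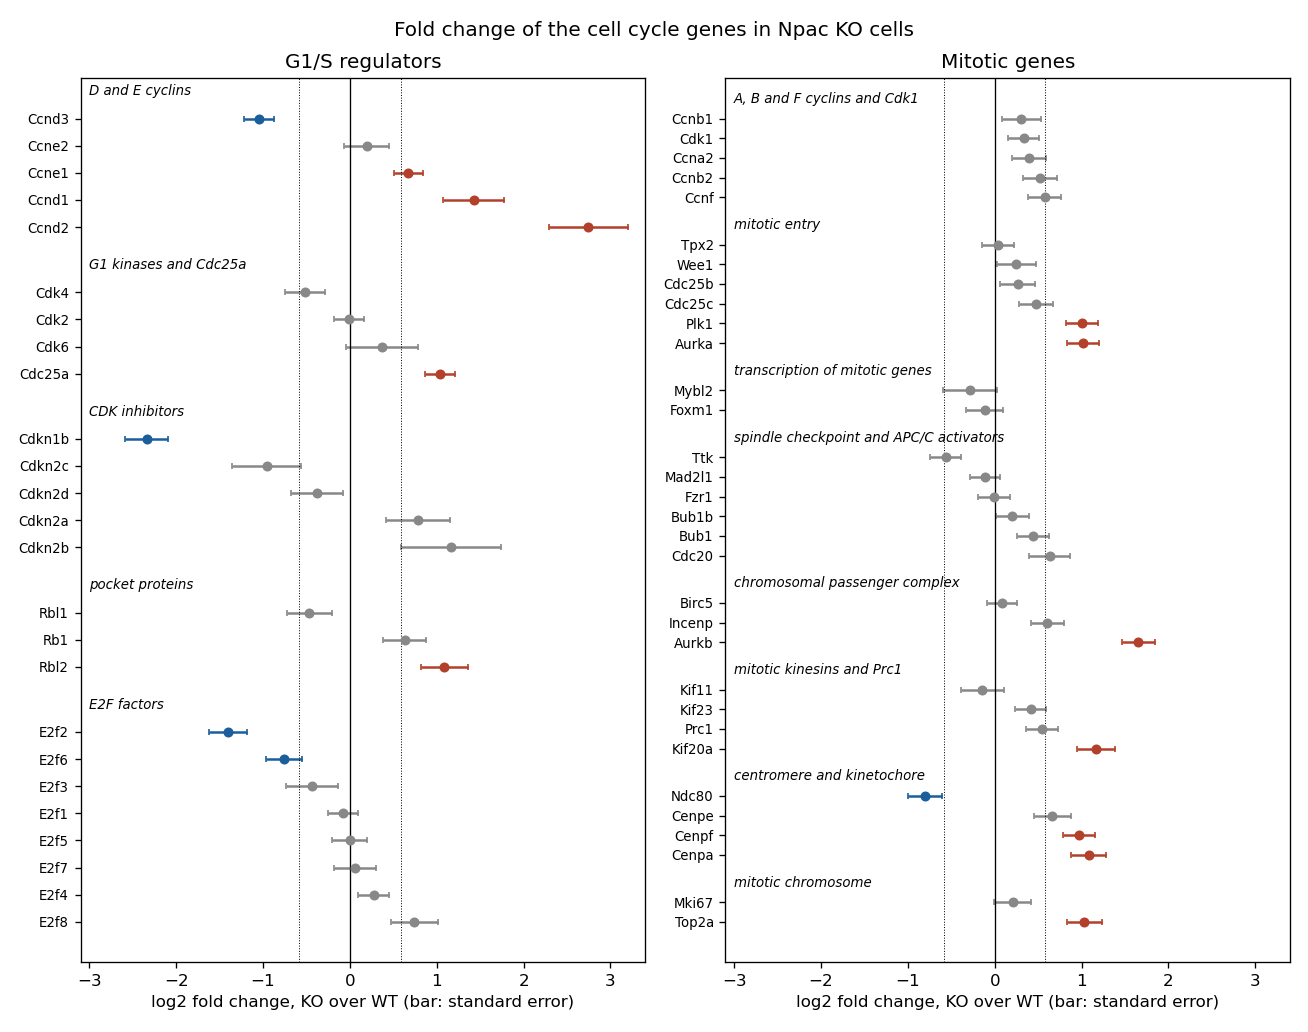
Log2 fold change of each of the 57 genes, KO over WT (horizontal axis, bars are standard errors from edgeR), with G1 to S regulators and mitotic genes in separate panels and called genes in colour. Values run from -2.34 for Cdkn1b to 2.75 for Ccnd2 in the first panel and from -0.80 for Ndc80 to 1.65 for Aurkb in the second.

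The G1 to S regulators were split in direction and the mitotic genes leaned upward. Of 25 G1 to S regulators 5 were up-regulated (20%) and 4 down-regulated (16%), 13 had a positive log2 fold change, and the median was 0.06. Of 32 mitotic genes 7 were up-regulated (21.9%) and 1 was down-regulated (3.1%), 25 were positive, and the median was 0.40. Over all genes tested 11.0% were up-regulated and 10.7% down-regulated, with a median of 0.00. The share up-regulated was thus similar in both gene groups, and the share down-regulated differed. Library by library, relative to the WT mean, the median mitotic gene stood at 0.12 in WT1 and -0.12 in WT2, against 0.46 in KO1 and 0.33 in KO2. Both KO medians were above both WT medians, and the gap between KO2 and WT1 was smaller than that between WT1 and WT2. The median G1 to S regulator stood at -0.02, 0.02, 0.08 and -0.03 in the same order, where the groups overlapped. The difference between the gene groups is a description and was not tested.

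**Figure D3:**
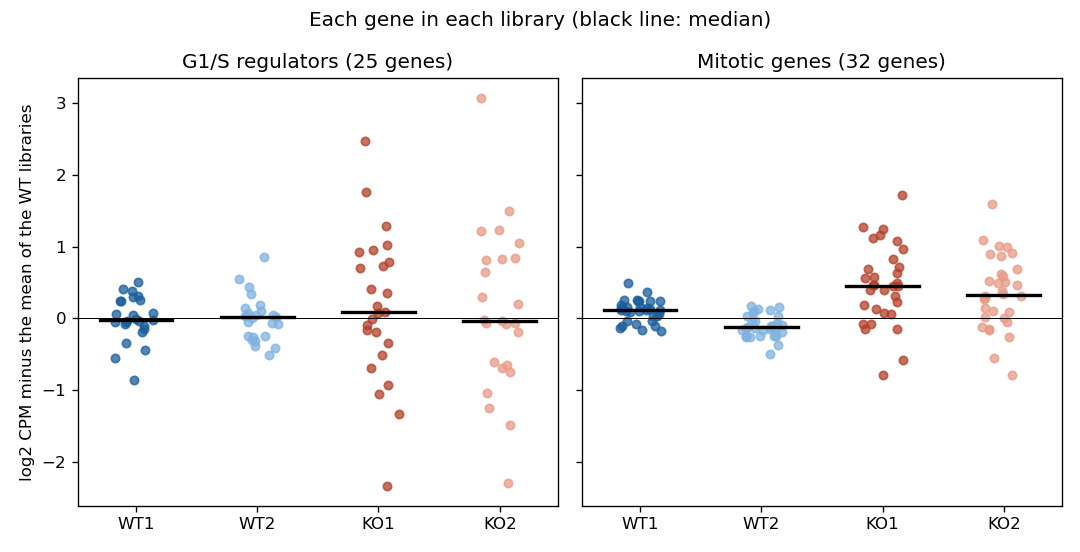
Log2 CPM of each gene minus the mean of the WT libraries (vertical axis) in each library, with 25 G1 to S regulators and 32 mitotic genes in separate panels, a point per gene and a black line at the median. The mitotic median moves from 0.12 and -0.12 in WT to 0.46 and 0.33 in KO libraries, while the G1 to S median stays between -0.03 and 0.08.

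Among the D-type cyclins, which link mitogen signals to Cdk4 and Cdk6, the abundant member fell and the scarce members rose. Ccnd3 (ENSMUSG00000034165, chromosome 17) was at 323 and 340 CPM in WT1 and WT2 and at 160 and 162 CPM in KO1 and KO2. Its KO libraries were well below its WT libraries, with a log2 fold change of -1.04 (SE 0.17, edgeR adjusted p = 0.00774). Ccnd1 (chromosome 7) was at 24.5, 12.2, 58.4 and 40.0 CPM in WT1, WT2, KO1 and KO2. The groups did not overlap, although the WT libraries differed from each other, and the log2 fold change was 1.43 (SE 0.35, edgeR adjusted p = 0.0268). Ccnd2 (chromosome 6) had only 17 and 36 reads in WT1 and WT2 but 133 and 224 in KO1 and KO2. That was the largest rise of the members, from 1.59 ± 0.67 to 10.7 ± 3.1 CPM (SD, n = 2 each), a log2 fold change of 2.75 (SE 0.46, edgeR adjusted p = 0.00769). On the log2(FPKM + 1) scale, which compresses low genes, the log2 fold change of Ccnd2 was 0.86 and no longer the largest. Per length, the D cyclins summed to 41.9 and 41.2 FPKM in WT and to 31.5 and 27.8 in KO libraries. Ccnd3 made up 87.4% and 93.2% of that sum in WT and 57.8% and 65.1% in KO libraries. The share of Ccnd1 was 12.3% and 6.23% in WT and 39.3% and 30.0% in KO libraries, so the D cyclin RNA became more evenly divided, with Ccnd3 still the larger part. In the GENCODE M21 annotation, exons of Ccnd1 and Ccnd3 share positions with a gene on the other strand (LTO1 and Bysl). Whether the counting used strand is not given in the sources used here.

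Of the E-type cyclins, which activate Cdk2, Ccne1 was the main form. It was at 112 CPM in WT1 and 113 in WT2, against 183 in KO1 and 175 in KO2. The replicates agreed closely within each group, and the log2 fold change was 0.67 (SE 0.17, edgeR adjusted p = 0.0290), the smallest rise that was called. Ccne2 stayed at 13.0 to 16.2 CPM in the 4 libraries (log2 fold change 0.19, edgeR adjusted p = 0.626). Together they amounted to 45.4 and 45.8 FPKM in WT and 72.5 and 69.1 in KO libraries.

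**Figure D4:**
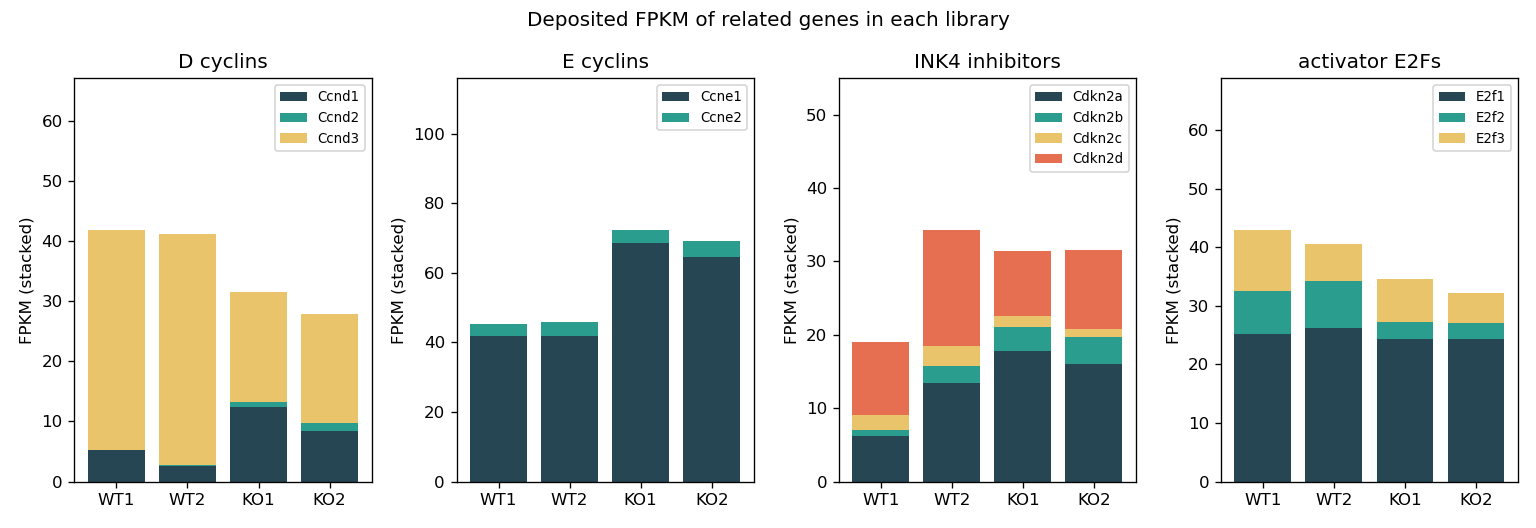
Deposited FPKM of related genes stacked in each library (vertical axis, 1 bar per library, 1 colour per gene), with panels for D cyclins, E cyclins, INK4 inhibitors and activator E2F genes. The D cyclin bars shrink from 41.9 and 41.2 FPKM in WT to 31.5 and 27.8 in KO libraries as the Ccnd3 section becomes smaller and the Ccnd1 section larger, while the E cyclin bars grow from 45.4 and 45.8 to 72.5 and 69.1.

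The kinases that these cyclins bind were not called. Cdk4, the most abundant G1 kinase per length, was at 378, 269, 252 and 199 CPM in WT1, WT2, KO1 and KO2. Its KO libraries were lower without overlap, but WT2 and KO1 were close to each other, and the test was not passed (log2 fold change -0.52, SE 0.23, edgeR adjusted p = 0.141). Cdk2 was at 130 to 146 CPM in all libraries (log2 fold change -0.01), and Cdk6 was scarce at 6.64 to 15.2 CPM. By contrast Cdc25a, the phosphatase that removes inhibitory phosphates from CDKs, was at 95.9 and 88.3 CPM in WT and at 187 and 190 CPM in KO libraries. The spread was small in either group beside a 2.05-fold rise (log2 fold change 1.03, SE 0.17, edgeR adjusted p = 0.00779).

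Cdkn1b, which encodes the CDK inhibitor p27, had the largest fall of the members. It lies on chromosome 6 (ENSMUSG00000003031) and was at 112 CPM in WT1 and 74.2 in WT2, against 18.1 in KO1 and 18.7 in KO2. The KO libraries were nearly identical and 5.07-fold below the WT mean (log2 fold change -2.34, SE 0.25, edgeR adjusted p = 0.00169). None of the 4 genes that encode INK4 inhibitors was called (21.7% of all genes tested were). Cdkn2a, the most abundant of them per length over all 4 libraries though below Cdkn2d in both WT libraries, was at 7.40, 15.8, 20.97 and 19.2 CPM in WT1, WT2, KO1 and KO2 (log2 fold change 0.79, edgeR adjusted p = 0.160). The WT libraries stood further apart than WT2 and the KO libraries did. Cdkn2b was at 5.14 CPM or less in every library, Cdkn2c was at 7.56 or less and Cdkn2d was at 13.96 to 25.2. Their log2 fold changes were 1.16, -0.96 and -0.38, with standard errors of 0.58, 0.40 and 0.30. Cdkn2a also encodes Arf, which is no INK4 inhibitor, and a count per gene holds both of its products. RNA of the 4 genes summed to 19.1 FPKM in WT1 and 34.3 in WT2, against 31.4 in KO1 and 31.6 in KO2, where the groups overlapped.

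Among the pocket proteins, which hold E2F factors in check, Rbl2 (p130) was up-regulated. It was at 8.45 and 9.10 CPM in WT and at 16.7 and 20.6 CPM in KO libraries (log2 fold change 1.09, SE 0.27, edgeR adjusted p = 0.0281). Rbl2 lies on chromosome 8, and with the median of each chromosome removed its log2 fold change was 0.56 (edgeR adjusted p = 0.178), so that the call was lost. In GENCODE M21, exons of Rbl2 share positions with Aktip on the other strand. Aktip had 673 and 875 reads in WT and 1293 and 1558 in KO libraries, against 129, 159, 260 and 356 for Rbl2. Whether reads of Aktip were counted for Rbl2 was not tested. Rb1 itself was at 18.1 and 22.3 CPM in WT and at 26.6 and 36.1 in KO libraries, which did not overlap but did not pass (log2 fold change 0.63, edgeR adjusted p = 0.105). Rbl1, the most abundant pocket protein gene per length in WT libraries, was at 65.4, 45.96, 47.9 and 32.6 CPM in WT1, WT2, KO1 and KO2, with WT2 within the KO range.

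None of the 8 E2F genes was called up-regulated (11.0% of all genes tested were). Of the 8, 2 were down-regulated (25%, against 10.7%). E2f2, an activator, was at 35.4 and 39.7 CPM in WT and at 14.9 and 13.4 CPM in KO libraries. The groups were far apart and the log2 fold change was -1.41 (SE 0.22, edgeR adjusted p = 0.00610). E2f6, a repressor that works apart from pocket proteins, was at 49.96 and 47.05 CPM in WT and at 25.5 and 31.9 in KO libraries (log2 fold change -0.76, SE 0.21, edgeR adjusted p = 0.0375). That call was lost with chromosome medians removed (edgeR adjusted p = 0.0589) and on the FPKM scale. E2f1, the most abundant activator per length, was at 76.9 to 83.6 CPM in the 4 libraries (log2 fold change -0.08). E2f4, the most abundant E2F gene per length, was at 145, 157, 192 and 173 CPM in WT1, WT2, KO1 and KO2, with a log2 fold change of 0.27 (edgeR adjusted p = 0.294) that was -0.25 once the median of chromosome 8 had been removed. The other E2F genes had log2 fold changes between -0.43 for E2f3 and 0.74 for E2f8, and neither these nor E2f5 and E2f7 were called.

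**Figure D5:**
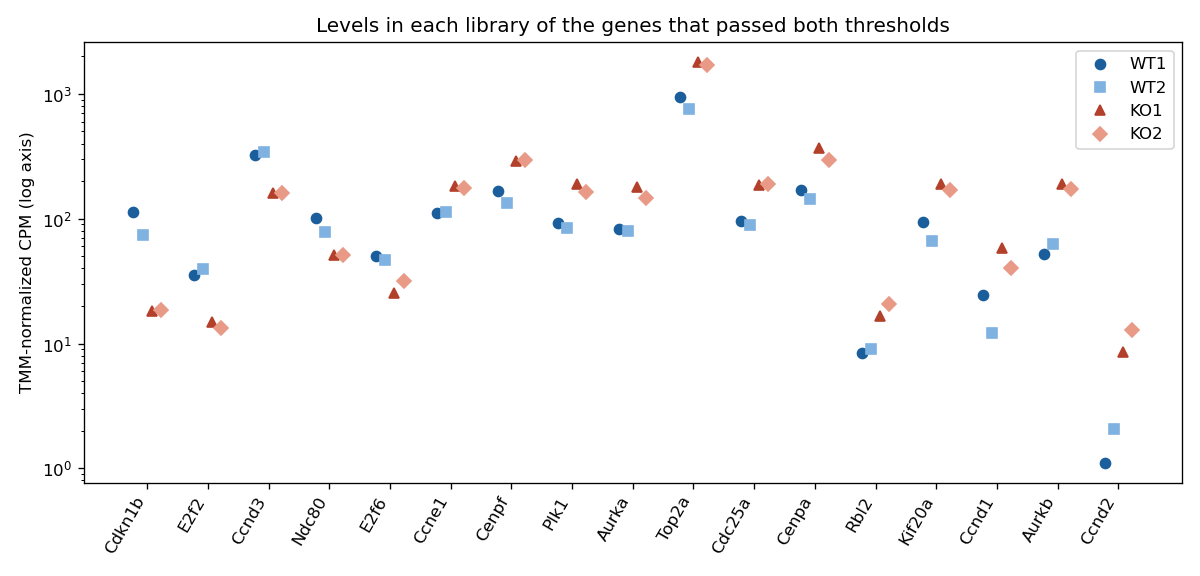
TMM-normalized CPM (vertical log axis) of the 17 called genes in each library, with a point per library coloured by genotype. The KO points lie above the WT points in 12 genes and below them in 5, and the widest gaps are those of Ccnd2 (1.11 and 2.06 against 8.56 and 12.9) and Cdkn1b (112 and 74.2 against 18.1 and 18.7).

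Of the cyclins that act in G2 and mitosis, none was called (21.7% of all genes tested were), though all had positive values. Ccnb2, the most abundant per length over the 4 libraries though below Ccnb1 in WT1, was at 133, 140, 223 and 168 CPM in WT1, WT2, KO1 and KO2, where KO1 stood well above KO2 (log2 fold change 0.52, edgeR adjusted p = 0.0970). Ccnf, whose product is a subunit of a ubiquitin ligase, was at 156 and 198 CPM in WT and at 259 and 269 in KO libraries (log2 fold change 0.57, SE 0.19, edgeR adjusted p = 0.0693). Ccna2, Ccnb1 and their kinase Cdk1 had log2 fold changes of 0.40, 0.31 and 0.33.

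Of the 6 genes of mitotic entry, the kinases Plk1 and Aurka were up-regulated (33.3%, against 11.0% of all genes tested). The other 4 genes were not called. Plk1, which promotes mitotic entry and centrosome maturation, was at 92.2 and 83.8 CPM in WT and at 191 and 163 CPM in KO libraries. Both KO libraries were well above both WT libraries, with a log2 fold change of 1.01 (SE 0.18, edgeR adjusted p = 0.0100). Aurka, which acts at spindle poles, was at 83.0 and 79.3 CPM in WT and at 181 and 148 in KO libraries (log2 fold change 1.02, SE 0.19, edgeR adjusted p = 0.0104). For Tpx2, which encodes an activator of Aurka and was the most abundant of these genes per length in WT libraries, the 4 libraries overlapped at 301, 262, 295 and 284 CPM (log2 fold change 0.04, edgeR adjusted p = 0.900). Cdc25b, Cdc25c and Wee1, the phosphatases and the kinase that set Cdk1 activity, had log2 fold changes of 0.27, 0.47 and 0.25 and were not called.

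The chromosomal passenger complex, which corrects attachments of chromosomes to the spindle, was uneven. Its kinase Aurkb (ENSMUSG00000020897, chromosome 11) was at 52.3 CPM in WT1 and 63.2 in WT2, against 189 in KO1 and 174 in KO2. That 3.14-fold rise was the largest among mitotic genes (log2 fold change 1.65, SE 0.19, edgeR adjusted p = 0.00222), and with chromosome medians removed it was 1.15 on the log2 scale (edgeR adjusted p = 0.00824). Birc5 (survivin), on the same chromosome, was at 170 and 180 CPM in WT and at 184 and 188 in KO libraries. The gap between groups was small (log2 fold change 0.08, edgeR adjusted p = 0.757), and the value was -0.42 with chromosome medians removed. Incenp, the scaffold, was at 186, 154, 262 and 254 CPM in WT1, WT2, KO1 and KO2, just outside the threshold here but called under 8 of 10 other settings (log2 fold change 0.61, SE 0.18, edgeR adjusted p = 0.0520).

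At the centromere, Cenpa and Cenpf rose and Ndc80 fell. Cenpa, the histone H3 variant that marks the centromere, was at 170 and 144 CPM in WT and at 371 and 293 CPM in KO libraries. Both KO libraries were clearly higher, with a log2 fold change of 1.08 (SE 0.20, edgeR adjusted p = 0.0112). Cenpf, a protein of the outer kinetochore, was at 166 and 135 CPM in WT and at 292 and 297 in KO libraries (log2 fold change 0.97, SE 0.19, edgeR adjusted p = 0.0124). The kinetochore motor Cenpe was at 131, 91.7, 177 and 177 CPM in WT1, WT2, KO1 and KO2 and did not pass (log2 fold change 0.66, edgeR adjusted p = 0.0613). Ndc80, which binds spindle microtubules, went the other way at 101 and 78.4 CPM in WT and 51.5 and 51.7 in KO libraries. It was the only mitotic member that was down-regulated (log2 fold change -0.80, SE 0.20, edgeR adjusted p = 0.0271).

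Among the motors and midzone genes, Kif20a, a kinesin of cytokinesis, was at 93.3 and 66.5 CPM in WT and at 190 and 168 CPM in KO libraries. The groups were well separated, with a log2 fold change of 1.17 (SE 0.22, edgeR adjusted p = 0.0107). Its exons share positions with Cdc23 on the other strand in GENCODE M21. Kif23 and Prc1, which bundle microtubules of the midzone, had log2 fold changes of 0.41 and 0.54 and Kif11, the spindle motor, had -0.14, and none of them was called. Top2a, the topoisomerase that untangles sister chromatids, was at 937 and 762 CPM in WT and at 1786 and 1692 CPM in KO libraries. Its log2 fold change of 1.03 (SE 0.20, edgeR adjusted p = 0.0124) was 0.53 (edgeR adjusted p = 0.0971) with the median of chromosome 11 removed, so that the call was lost. Mki67, whose protein Ki-67 the study stained, was at 272, 195, 262 and 277 CPM in WT1, WT2, KO1 and KO2. WT1 lay among the KO libraries, and no change in Mki67 RNA was detected (log2 fold change 0.21, SE 0.21, edgeR adjusted p = 0.518). The paper reports less Ki-67 protein by staining and slower proliferation of KO cells, which are measures other than RNA. From its RNA-seq, the paper lists cell proliferation, apoptosis and the cell cycle among the functions of commonly up-regulated genes.

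No gene of the spindle checkpoint or of the activators of the anaphase-promoting complex (APC/C) was called (21.7% of all genes tested were). Cdc20, an activator and the most abundant of these per length, was at 190, 132, 282 and 218 CPM in WT1, WT2, KO1 and KO2. The KO libraries were higher but WT1 and KO2 were near each other (log2 fold change 0.63, edgeR adjusted p = 0.0920). Ttk, a checkpoint kinase, had the most negative value at -0.56 (edgeR adjusted p = 0.0594), and Bub1, Bub1b, Mad2l1 and Fzr1 lay between -0.11 and 0.44. Mybl2 and Foxm1, transcription factors known to act on mitotic promoters, were not called either. Mybl2, the most abundant member per length in WT cells, differed between the WT libraries, at 1377 CPM in WT1 and 697 in WT2, against 889 in KO1 and 816 in KO2 (log2 fold change -0.28, edgeR adjusted p = 0.544). Foxm1 was at 112, 79.0, 85.1 and 91.0 CPM in the same order, with the KO libraries between the WT libraries.

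Further genes of the same or related pathways were examined as lists, also chosen with earlier results of these data known. Of 81 other mitosis genes tested, 17 were up-regulated (20.99%, against 11.0% of all genes tested) and 4 were down-regulated (4.94%, against 10.7%), 50 were positive and the median log2 fold change was 0.14. The largest rises were those of separase (Espl1, 1.53), its inhibitor securin (Pttg1, 1.38), Kpna2 (1.33) and the kinase Pbk (1.17), and the falls were Bora (-1.90), an activator of Aurka, Kif15 (-1.02), Depdc1b (-0.83) and Mad1l1 (-0.79). Espl1 was at 209 and 240 CPM in WT and at 649 and 646 in KO libraries (edgeR adjusted p = 0.00275). Bora was at 198 and 214 CPM in WT and at 53.2 and 57.03 in KO libraries (edgeR adjusted p = 0.00110). Both were separated by more than the spread of either group, and Pttg1 and Kpna2 lie on chromosome 11. Another list held 26 further cyclin, CDK and related genes. Not all of them are specific to the G1 to S passage, as with Cdk7, Cdk8, Cdk9, Cdk19, Lin9, Lin37, Lin52 and Lin54. Of these 26 genes 5 were up-regulated (19.2%, against 11.0%), among them Ccng1 (1.82), Skp1 (1.16), Tfdp1 (0.83) and Cdk19 (0.78). Only Tfdp2 (-0.63) was down-regulated (3.85%, against 10.7%). Ccng1 and Skp1 lie on chromosome 11 and Tfdp1 on chromosome 8, and the median of these 26 genes was -0.02. Of 14 APC/C subunits 1 was up-regulated (7.14%, below the 11.0% of all genes), Anapc10 (1.02, chromosome 8), and the median was 0.12.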

How the data were processed

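RNA-seq of 4 libraries was analysed. The authors deposited raw counts of reads per gene, without normalization, and FPKM values, in which the same counts are scaled by library size and gene length. The submitters' notes name CASAVA, HISAT2 2.0.5, featureCounts 1.5.0-p3 and mm10, and the paper names another version of HISAT. Strand use in the counting is not given in the sources used here, and 23 members share exon positions with another gene in GENCODE M21. Gene positions in the deposited tables equalled those of GENCODE M21 (GRCm38) for 1 of 57 members, so only their chromosome names were used. Exon overlaps in the annotation used for counting may therefore differ. Promoter coordinates are of GRCm38.p6.

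Counts were tested in R 4.3.3 with edgeR 4.0.16 (filterByExpr, TMM, genotype as the only term, quasi-likelihood test) over 18157 genes, with p-values adjusted by Benjamini and Hochberg's method. The common biological coefficient of variation was 0.235. Replicate libraries correlated across genes at 0.961 (WT) and 0.979 (KO) in log2 CPM. Alternatives were DESeq2 1.42.0, limma 3.58.1 on log2(FPKM + 0.1) and log2(FPKM + 1), other normalizations and filters, a replicate block, protein-coding genes, chromosome medians removed from each KO library, and each library left out. The edgeR likelihood ratio test was added after seeing the data. Scripts were tested on simulated data. Values in every library are given for each called member, for the most abundant (mean FPKM of the 4 libraries) and the most changed member of each role, and for Mki67, with up to 4 rising and 4 falling genes of each further list. Members and lists were chosen with earlier results of these data known. Pseudogenes matched by blastn 2.17.0+ (90% identity over 60% of their length) reached at most 6.16% of a member's reads, for Cdk6.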

Additional observations from a re-analysis of the deposited data

How the results depend on the processing

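All 17 called members were called under DESeq2, RLE and upper-quartile normalization, both changed count filters, the replicate block, protein-coding genes only and the added likelihood ratio test, 15 under both FPKM settings (not Rbl2 and E2f6) and 14 with chromosome medians removed (not Rbl2, E2f6 and Top2a). The replicate block gave 19 up-regulated members, among 3128 up-regulated and 2994 down-regulated genes in all. Library numbers were not taken as a pairing, since the labels do not tie them and only 2 pairs exist, with deviations of WT1 and KO1 from their group means correlated at 0.308. Under the other settings with all libraries 12 to 16 members were up-regulated and 4 to 6 down-regulated. Leaving out each library gave 2 (without KO1) to 17 up-regulated and 1 (without KO2) to 10 (without WT2) down-regulated members, and 4 of the 17 calls were kept without KO1 and 7 without KO2, where the lone KO library is assumed to vary like the WT libraries. Calls among all genes tested moved the same way, with fewer in each direction without either KO library and more without either WT library. The member counts with a library left out therefore do not by themselves show a change particular to the members. The median of the G1 to S regulators lay between -0.060 and 0.14 with a library left out. That of the mitotic genes lay between 0.31 and 0.45, and at 0.50 with chromosome medians removed. Of the members not called, Incenp was called under 8 and Cenpe under 5 of the 10 planned settings that keep all libraries, and with chromosome medians removed Ccnb2, Ccnf and Kif23 were called too. With 2 libraries per genotype, a change that was not called is not shown to be absent.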
